A study of Homo sapiens with 36 samples.

Results

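The 5 genes described here act at successive points in the handling of lipids by a cell: CD36, LIPC, PLA2G2A, ABCA1 and PCYT2. They are 5 of the 20802 genes counted in LoVo, a line established from a human colorectal cancer, and were chosen by name because earlier readings of the same data showed strong rises or a response at low dose. The values against DMSO that led to the choice are therefore given as a description, with no test. The cells were grown in medium with serum and received a MEK inhibitor at 0.03, 0.1, 0.3, 1, 3, 10, 30, 100, 300 or 1000 nM, or its solvent DMSO, for 24 h. MEK is the kinase that activates ERK, and the inhibitor was a single compound known in the sources only by its number in a published series. There were 3 libraries for each dose and 6 for DMSO, which the labels divide into 3 of chip 1 and 3 of chip 2; the chips of the treated libraries are not labelled. All libraries came from 1 cell line, so the groups differ only in dose and chip as far as the labels say.

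Cells take up fatty acids through membrane proteins, release them from circulating lipoproteins and from membranes with lipases and phospholipases, build them into new phospholipids, and export surplus cholesterol and phospholipid. CD36 is a scavenger receptor that aids the uptake of long-chain fatty acids. LIPC, hepatic lipase, is a secreted enzyme that cleaves triglycerides and phospholipids of lipoproteins and is best known from liver. PLA2G2A is a secreted phospholipase A2 that frees fatty acids from phospholipids, and in the gut it is known as a product of Paneth cells with antibacterial action. PCYT2 makes CDP-ethanolamine, the regulated step in the synthesis of phosphatidylethanolamine. ABCA1 passes cholesterol and phospholipid to apolipoprotein A-I and is a known target of the oxysterol receptors LXR.

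The promoter windows of 4 of the 5 genes are shown as a description, and they differ in composition and in the motifs they hold. A link between these windows and the doses at which the genes moved was not tested. RefSeq windows of GRCh38.p14 reach from 250 bases before to 50 bases after a start, and all 5 genes were found in the table. Each line is read 5′ to 3′ on the strand of the gene, and capitals mark matches to the searched motifs. The motifs were the GC box GGGCGG, the CCAAT box, the E-box CACGTG, the AP-1 site TGANTCA, the HNF1 site, the LXR-type repeat DR4 and the TATA box TATAAA, each on both strands. The windows lie at chr15:58431741-58432040 on the plus strand for LIPC, chr1:19979610-19979909 on the minus strand for the PLA2G2A start numbered 1 of 3, chr17:81911350-81911649 on the minus strand for the PCYT2 start numbered 1 of 2, and chr9:104928106-104928405 on the minus strand for ABCA1.
LIPC: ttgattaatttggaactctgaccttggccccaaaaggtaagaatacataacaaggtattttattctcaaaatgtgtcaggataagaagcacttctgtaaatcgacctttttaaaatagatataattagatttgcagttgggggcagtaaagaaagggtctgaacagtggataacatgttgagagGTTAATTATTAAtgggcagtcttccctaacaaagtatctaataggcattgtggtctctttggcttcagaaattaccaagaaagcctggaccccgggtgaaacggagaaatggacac
PLA2G2A: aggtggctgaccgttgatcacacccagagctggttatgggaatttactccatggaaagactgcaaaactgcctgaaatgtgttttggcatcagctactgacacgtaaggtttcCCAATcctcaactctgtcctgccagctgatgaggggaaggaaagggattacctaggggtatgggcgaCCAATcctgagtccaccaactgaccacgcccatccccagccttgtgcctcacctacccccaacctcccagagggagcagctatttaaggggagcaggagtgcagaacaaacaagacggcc
PCYT2: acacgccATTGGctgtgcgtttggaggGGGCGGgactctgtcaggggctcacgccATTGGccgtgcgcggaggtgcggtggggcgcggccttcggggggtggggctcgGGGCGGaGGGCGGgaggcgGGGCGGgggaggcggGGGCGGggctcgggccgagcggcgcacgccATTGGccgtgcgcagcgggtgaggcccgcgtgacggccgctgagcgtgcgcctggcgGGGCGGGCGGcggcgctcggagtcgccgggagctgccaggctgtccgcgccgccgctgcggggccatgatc
ABCA1: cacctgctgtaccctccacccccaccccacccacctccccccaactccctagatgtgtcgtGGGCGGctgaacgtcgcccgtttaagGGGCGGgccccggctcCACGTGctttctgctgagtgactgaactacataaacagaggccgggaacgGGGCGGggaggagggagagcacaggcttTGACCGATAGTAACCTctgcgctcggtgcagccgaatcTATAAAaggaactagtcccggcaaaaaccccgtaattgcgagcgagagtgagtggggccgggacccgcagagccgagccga

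The LIPC window had a GC content of 38.3%, against a median of 58.7% over 35116 windows, and held an HNF1 site, GTTAATTATTAA, which 0.0484% of all windows hold. The PLA2G2A window had a GC content of 53.7% and 2 CCAAT boxes, a motif of 34.6% of windows. The PCYT2 window reached 79.7% GC and held 7 GC boxes, of which 2 overlap, and 3 CCAAT boxes on the opposite strand; 45% of windows hold a GC box. In the ABCA1 window, at 62.7% GC, the matches were 3 GC boxes, an E-box (7.26% of windows) and a TATA box (11.5% of windows). It also held a match to the loose DR4 pattern on the opposite strand, printed on the strand of the gene as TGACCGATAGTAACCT (0.236% of windows). CD36 has 6 listed starts whose windows ran from 35% to 43.7% GC. The window of start 5 held an AP-1 site (7.71% of all windows), a CCAAT box and a TATA box. That of start 1 held a TATA box on the opposite strand. Since 6 windows were searched for CD36, a share per window is not the rate for this gene. A match describes letters in a window and was not tied to binding by any measurement here.

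Library totals ran from 2972186 to 4751839 counts with a median of 3952427, and 12102 genes passed the filter on low counts, all 5 genes among them. Counts were scaled by library size to CPM, and since each gene is read from its own amplicon, CPM is not compared between genes. The MEK target DUSP6, a phosphatase of ERK, fell by 5.06 on the log2 scale at 1000 nM and ETV4 fell by 3.86 (edgeR adjusted p = 1.10e-26 and 1.67e-21). The 12 gut epithelial markers summed to between 4346 and 4566 CPM in DMSO and between 4524 and 4974 CPM at 1000 nM. Within that sum 5 of the 12 rose and 4 fell: KRT19 went from 13874 counts over 6 DMSO libraries to 16676 over 3 libraries at 1000 nM, and CEACAM5 from 5137 to 935. The library of replicate 1 at 1 nM and that of replicate 1 at 1000 nM had the lowest mean correlation with their own group (0.959 and 0.960, median of all libraries 0.985). Without both, DUSP6 fell by 4.91 and ETV4 fell by 3.89 on the log2 scale at 1000 nM. In bulk RNA, more cells that express a gene and more RNA per cell cannot be told apart.

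The question for uptake and lipoprotein hydrolysis was from which dose CD36 and LIPC stood above DMSO and whether they levelled off. CD36 read 3.26, 2.77 and 4.40 CPM in the DMSO libraries of chip 1 and 3.38, 2.20 and 5.11 CPM in those of chip 2. It read 5.29, 4.12 and 4.68 CPM at 0.3 nM and 8.96, 8.46 and 9.07 CPM at 1 nM. At 1000 nM the 3 libraries stood at 42.8, 44.2 and 51.9 CPM. The ranges of DMSO and 0.3 nM overlapped, while from 1 nM upward every CD36 library lay above every DMSO library.

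In between, CD36 was higher at each step: 13.1, 10.3 and 12.6 CPM at 3 nM, then 19.5, 20.05 and 14.3 CPM at 10 nM. It read 29.3, 29.9 and 23.4 CPM at 30 nM and 37.6, 40.3 and 38.1 CPM at 100 nM. No library of one of these doses overlapped the dose below it, from 0.3 nM up to 100 nM. The 3 top doses were not separated in the same way, since 300 nM gave 44.4, 45.2 and 39.1 CPM. The mean went from 3.52 ± 1.15 CPM in DMSO (SD, n = 3 pairs of same-numbered libraries) to 46.3 ± 4.90 CPM at 1000 nM (SD, n = 3), a log2 difference of 3.72 with a standard error of 0.211. Behind the DMSO values stood 7 to 16 counts per library, so its base level is imprecise.

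LIPC followed CD36 closely. It read 8.27, 8.57 and 4.13 CPM in DMSO of chip 1 and 3.99, 5.65 and 6.13 CPM in DMSO of chip 2. At 0.3 nM it read 7.49, 6.86 and 9.58 CPM, and at 1 nM 16.9, 13.2 and 9.31 CPM. All 3 libraries at 1 nM were above all DMSO libraries, though the lowest of them lay inside the range of 0.3 nM. From there LIPC went to 24.7, 27.7 and 19.4 CPM at 3 nM and to 40.2, 35.3 and 47.1 CPM at 10 nM. It reached 54.3, 65.8 and 63.6 CPM at 30 nM and 75.5, 79.5 and 79.6 CPM at 100 nM.

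Each step of LIPC from 1 nM to 300 nM was free of overlap, which is 1 step further up the dose range than for CD36. The libraries of 300 nM stood at 87.1, 89.3 and 81.6 CPM and those of 1000 nM at 104, 88.9 and 89.3 CPM, where the ranges met. The mean LIPC level was 6.12 ± 0.990 CPM in DMSO (SD, n = 3 pairs) and 94.2 ± 8.84 CPM at 1000 nM (SD, n = 3), a log2 difference of 3.95 with a standard error of 0.196. That was the largest log2 difference among the 5 genes. It was 3.73 against chip 1 alone and 4.16 against chip 2 alone, and 3.86 without the 2 libraries that stood apart, where CD36 gave 3.76. At 1 nM the log2 difference was 1.08 for LIPC and 1.33 for CD36, and 0.90 and 1.32 without those libraries.

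PLA2G2A, the phospholipase, answered at lower doses and then declined. DMSO libraries read 34.3, 30.5 and 27.8 CPM on chip 1 and 30.7, 29.2 and 33.0 CPM on chip 2. At 0.1 nM the libraries read 33.5, 36.1 and 39.4 CPM, and at 0.3 nM 49.2, 39.3 and 43.0 CPM. Every library at 0.3 nM was above every DMSO library, a dose at which this held for 4.2% of all tested genes. At 1 nM the level was 120, 91.6 and 87.1 CPM, and at 3 nM 160, 155 and 137 CPM.

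The highest PLA2G2A mean fell at 30 nM and not at the highest dose. At 10 nM the libraries read 240, 215 and 235 CPM, and at 30 nM 238, 245 and 256 CPM. At 100 nM they read 199, 219 and 197 CPM, all below all libraries of 30 nM. The doses of 300 nM (220, 203 and 213 CPM) and 1000 nM (213, 174 and 202 CPM) stayed in that lower range. Against DMSO at 30.9 ± 1.41 CPM (SD, n = 3 pairs), the log2 difference was 1.68 at 1 nM, 2.99 at 30 nM and 2.67 at 1000 nM, each with a standard error of 0.126 or less. Leaving out the libraries that stood apart gave 1.53 at 1 nM and 2.59 at 1000 nM.

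PCYT2, the enzyme of phosphatidylethanolamine synthesis, reached its upper level by 1 nM and changed little after it. DMSO libraries read 9.27, 7.06 and 10.2 CPM on chip 1 and 7.99, 8.16 and 10.6 CPM on chip 2. At 0.1 nM the values were 8.32, 9.32 and 9.92 CPM, and at 0.3 nM 11.02, 14.4 and 14.7 CPM. The step from 0.1 to 0.3 nM was the single step between neighbouring doses whose PCYT2 ranges did not overlap, and from 0.3 nM every library exceeded all DMSO libraries. The libraries at 0.03 nM, however, ran from 8.66 to 12.8 CPM, a range that met that of 0.3 nM. At 1 nM it read 21.4, 21.9 and 14.1 CPM.

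Above 1 nM the mean PCYT2 level moved between 17.6 and 22.3 CPM with no separation between neighbouring doses. The 1000 nM libraries were scattered, at 28.7, 18.7 and 14.2 CPM (SD 7.41 CPM). The highest of these is the library that stood apart at that dose. The log2 difference from DMSO of 1.20, with a standard error of 0.232, was 0.87 without it and its 1 nM counterpart. Leaving out 1 library at a time moved it both ways, to 0.88 without 1000 nM replicate 1 and to 1.42 without 1000 nM replicate 3. At 1 nM the difference was 1.10 with all libraries and 1.03 without those 2.

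ABCA1, the exporter, was read from few counts, and its values are the least certain. The DMSO libraries held 5 to 8 counts each, or 1.25, 1.51 and 1.38 CPM on chip 1 and 2.46, 1.88 and 2.04 CPM on chip 2. The 2 chips did not overlap, and the SD of 0.0875 CPM over the 3 pair means hides that gap. Values from 0.03 to 10 nM lay between 1.14 and 3.79 CPM and overlapped DMSO at every dose. At 30 nM the libraries read 3.48, 5.44 and 1.78 CPM, also overlapping DMSO.

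At the 3 top doses every ABCA1 library was above every DMSO library. The readings were 6.14, 4.80 and 3.19 CPM at 100 nM, 3.25, 2.63 and 6.18 CPM at 300 nM, and 3.38, 4.68 and 5.07 CPM at 1000 nM. No step between neighbouring doses was free of overlap. The log2 difference at 1000 nM was 1.34 with a standard error of 0.432, from 1.75 CPM in DMSO to 4.37 ± 0.885 CPM (SD, n = 3). Against chip 1 alone it was 1.65 and against chip 2 alone 1.03, and without the 2 libraries that stood apart 1.48.

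**Figure D1:**
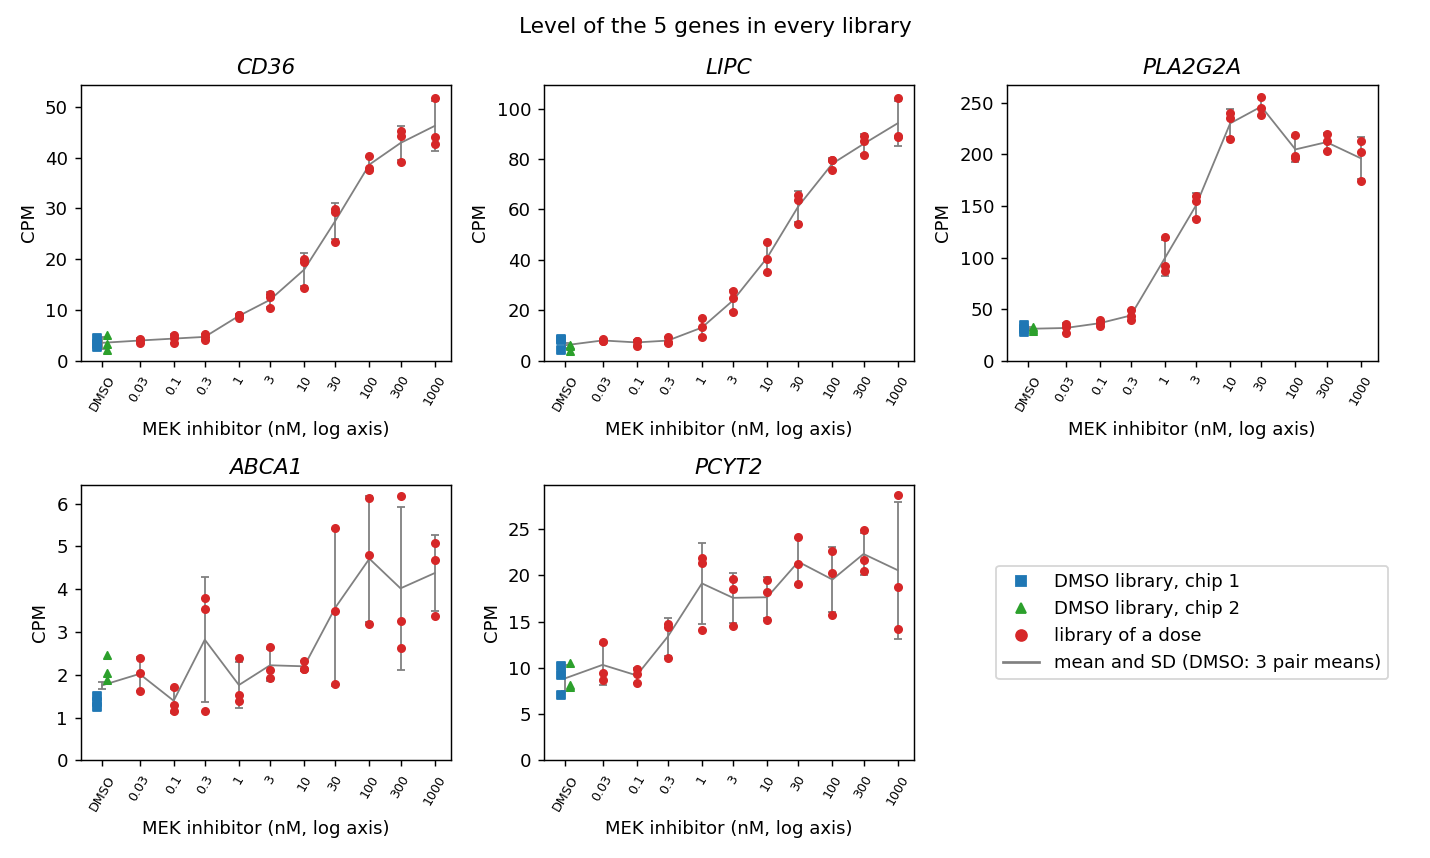
Scaled counts (CPM, linear axis from 0) of the 5 genes in all 36 libraries against dose (log axis, DMSO at the left), with DMSO libraries of chip 1 as squares, of chip 2 as triangles and treated libraries as circles; lines join means and bars are SD. CD36 and LIPC overlap DMSO below 1 nM. Their means climb from 1 nM upward, with overlapping ranges at the highest doses. PLA2G2A peaks at 30 nM, PCYT2 is flat above 1 nM and ABCA1 leaves the DMSO range at 100 nM.

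The count of genes with all 3 libraries above all 6 DMSO libraries gives the background for these statements. Of the 12102 tested genes, 1.24% met it at 0.03 nM and 1.82% at 0.1 nM, where none of the 5 did. It was 4.2% at 0.3 nM, where PLA2G2A and PCYT2 met it, and 10.6% at 1 nM, where CD36 and LIPC joined them. The share was 14% at 3 nM, 19.7% at 10 nM and 22.3% at 30 nM, with the same 4 genes. It was 23.3% at 100 nM, 26.1% at 300 nM and 22.9% at 1000 nM, where all 5 met it. Since the genes were chosen on this contrast, nothing is read from their number. Steps between neighbouring doses that were free of overlap were not counted over all tested genes. They are therefore a description of the 5 genes only.

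To place the 5 genes on one dose scale, a curve of base plus top × dose/(dose + EC50) was fitted to the log2 CPM of the 36 libraries, where EC50 is the dose at the midpoint of the fitted curve. The fitted EC50 was 0.332 nM for PCYT2, with a range of 1 standard error from 0.215 to 0.512 nM. For PLA2G2A it was 0.800 nM (0.703 to 0.910 nM). LIPC at 3.38 nM (2.91 to 3.93 nM) and CD36 at 3.43 nM (2.88 to 4.09 nM) shared a value within their errors. ABCA1 came last at 18.0 nM, with the wide range of 8.20 to 39.5 nM that its low counts allow.

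The position of the midpoint depends on the scale. On CPM itself, a fit chosen after seeing the data, it was 12.7 nM for CD36, 12.5 nM for LIPC, 2.24 nM for PLA2G2A, 26.2 nM for ABCA1 and 0.549 nM for PCYT2. PCYT2, then PLA2G2A, then LIPC and CD36, then ABCA1 was the order on both scales, although on CPM the range of ABCA1 reached down to 12.7 nM and met those of CD36 and LIPC. The curve has no decline, so the fall of PLA2G2A above 30 nM is not described by it.

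**Figure D2:**
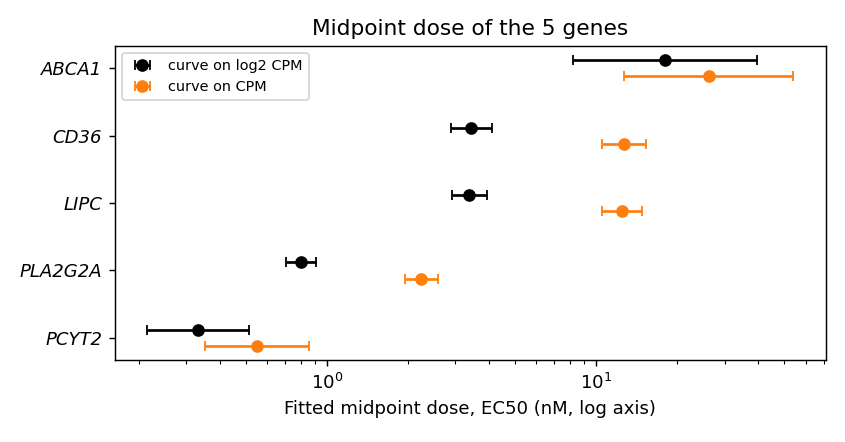
Fitted midpoint dose (nM, log axis) of each gene, with bars of 1 standard error, from curves on log2 CPM (black) and on CPM (orange). The values run from PCYT2 at 0.332 nM to ABCA1 at 18.0 nM on log2 CPM, and CD36 and LIPC lie further right on CPM.

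A comparison that the choice of genes did not use is that of the DMSO libraries of chip 2 with those of chip 1. In edgeR's quasi-likelihood test none of the 5 genes passed, with an adjusted p of 1.00 for each, and 0 of 12102 genes passed, 308 having an unadjusted p below 0.05 and DESeq2 calling 2. The log2 difference of chip 2 from chip 1 was 0.03 for CD36, 0.00 for PLA2G2A and 0.01 for PCYT2. It was -0.43 for LIPC, with a standard error of 0.276, and 0.62 for ABCA1, with a standard error of 0.514. ABCA1 was higher on chip 2 in 3 of 3 pairs. For LIPC, 2 of 3 pairs were lower on chip 2.

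Across the 11 conditions, the mean log2 CPM of CD36 and LIPC had a Pearson r of 0.995, the highest of the 10 pairs among the 5 genes. PLA2G2A and ABCA1 had the lowest, 0.707. These values share the same libraries and the same dose order and describe the profiles only. Among 3043 other genes with at least 5 CPM in their highest condition and a range of at least 1 log2 unit, the profiles most like CD36 were those of ETS2 (r = 0.998), TUBB2A (0.997) and MUC13 (0.997). LIPC was most like GSN (0.997), ETS2 (0.996) and CALML4 (0.996). The profile of PLA2G2A was nearest to C1GALT1C1 (0.990), TMEM14A (0.990) and HMGCS1 (0.989), the last an enzyme of sterol synthesis. PCYT2 was nearest to ANKS4B (0.976), WDR37 (0.972) and SGMS1 (0.972), a sphingomyelin synthase. For ABCA1 the nearest were COL7A1 (0.976), LOC100129480 (0.960) and STBD1 (0.954).

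Known regulators of the 5 genes were followed at the RNA level. PPARG, the nuclear receptor for which CD36 is a textbook target, read 128 ± 5.45 CPM in DMSO and 148 ± 22.5 CPM at 1000 nM (log2 difference 0.21, adjusted p = 0.346) and did not pass; against chip 1 alone it did, at 0.29 and adjusted p = 0.0335. Of the 10 doses PPARG passed only at 3 nM, where it was lower (log2 difference -0.45, adjusted p = 0.0183), with -0.10 at 1 nM (adjusted p = 0.993) and -0.29 at 10 nM (0.174). PPARA rose from 21.5 ± 3.45 to 34.6 ± 2.42 CPM at 1000 nM (log2 0.68, adjusted p = 0.00212). NR1H2, an LXR receptor, read 18.8 ± 2.67 and 15.6 ± 2.52 CPM (log2 -0.27, adjusted p = 0.314). NR1H3, the other LXR receptor, had 24 counts over the 6 DMSO libraries and 7 over the 3 of 1000 nM, too few for the test.

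Of the sterol regulators, SREBF2 rose at 1 nM by 0.56 on the log2 scale (adjusted p = 0.000255) and was 0.45 higher at 1000 nM (adjusted p = 0.000408). SREBF1 read 92.9 ± 0.516 CPM in DMSO and 86.0 ± 2.54 CPM at 1000 nM and did not pass (log2 -0.11, adjusted p = 0.748). Without the 2 libraries that stood apart, the log2 difference at 1000 nM was 0.07 for PPARG, 0.65 for PPARA and 0.37 for SREBF2, of which the last 2 passed; SREBF2 gave 0.57 at 1 nM and passed there as well.

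Other lipid genes were taken from 11 lists, some of which, such as sterol synthesis, are not pathways of the 5 genes. The lists hold 196 genes of the matrix outside the 5, of which 139 were tested. At 0.03, 0.1 and 0.3 nM none of them passed edgeR's test, and DESeq2 called no gene of the matrix. The larger unadjusted p of edgeR's 2 tests, against chip 1 and against chip 2, was below 0.05 for 1, 5 and 9 of the 139. It was so for 42, 299 and 330 of all 12102. The larger of 2 p-values is less often low than a single p, so these counts cannot be set beside the 308 of the chip comparison. At 1 nM 26 of the 139 rose and 1 fell (19.4%), against 7.97% of all tested genes in either direction, 3.95% higher and 4.02% lower. The shares of lipid genes and of all genes were 24.5% and 13.3% at 3 nM, 41% and 26.8% at 10 nM, 50.4% and 36% at 30 nM, 47.5% and 37.2% at 100 nM, and 49.6% and 45.1% at 300 nM. At 1000 nM 53 rose and 15 fell (48.9%, against 41.8% of all genes, 21.2% higher and 20.7% lower), with a median log2 difference of 0.24 beside 0.01 for all genes. Sterol synthesis supplied 11 of the 26 that rose at 1 nM and 12 of the 53 that rose at 1000 nM. The shares without that list were not computed. Without the libraries that stood apart, 24 lipid list genes were called at 1 nM, and 46 rose and 13 fell at 1000 nM. Of the 39 list genes chosen for naming, 37 were still called without them, and the log2 differences moved by at most 0.28. The list counts given next became 4 up and 1 down for fatty acid uptake, 3 up for export, 3 up for the CDP pathways, 3 up and 2 down for the phosphatidic acid branch and 6 up for fatty acid oxidation, and the numbers of the other lists were as with all libraries.

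At 1000 nM 41.8% of all tested genes were called. The share was 72.2% in sterol synthesis, 61.5% in fatty acid uptake, 57.1% in lipases, 52.9% in fatty acid oxidation and 50% in remodelling. In the other lists it lay near or below that of all genes, from 44.4% in lipid export to 22.2% in LXR targets. Without the libraries that stood apart, uptake gave 38.5% and oxidation 38.9%, against 38% of all genes. In fatty acid uptake, the list nearest to CD36, 6 of 13 tested genes rose and 2 fell at 1000 nM, with a median of 0.36. DBI, which binds acyl-CoA, went from 110 ± 10.5 to 227 ± 26.4 CPM (log2 1.05, standard error 0.129). SLC27A3, a fatty acid transport protein, rose by 1.07 and ACSL1, an acyl-CoA synthetase, by 0.69. MFSD2A, a transporter of lysophospholipids with long-chain fatty acids, fell by 2.40 on the log2 scale, from 6.78 to 1.26 CPM. So transporters and binding proteins of this list moved in both directions.

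Among lipases and lipoprotein genes, the list nearest to LIPC, 5 of 14 rose and 3 fell, with a median of 0.23. LIPG, endothelial lipase and a relative of LIPC, fell from 77.0 ± 2.35 to 12.5 ± 3.34 CPM (log2 -2.61, adjusted p = 3.46e-19 in edgeR's test). The 2 lipases thus lay on opposite sides of DMSO at 1000 nM. SCARB1, the HDL receptor, fell by 0.97 on the log2 scale. The lysosomal lipase LIPA rose by 1.06 and the triglyceride lipase PNPLA2 by 0.49.

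In the list of phospholipases A2 and related genes, without PLA2G2A, 3 of 12 rose and 1 fell, with a median of 0.00. One of the 3 that rose is not a phospholipase. PLA2R1, a receptor for secreted phospholipases A2, rose from 6.17 ± 0.783 to 31.0 ± 3.04 CPM (log2 2.33). The intracellular enzymes PLA2G6 and PNPLA6 rose by 0.94 and 0.62. PLA2G12A fell by 0.55 on the log2 scale (adjusted p = 0.0141), a call lost without 1000 nM replicate 1 (adjusted p = 0.130) or DMSO chip 2 replicate 1 (0.0779).

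In the CDP-ethanolamine and CDP-choline pathways around PCYT2, 4 of 14 genes rose and 2 fell, with a median of 0.02. ETNK2, an ethanolamine kinase acting before PCYT2, rose by 1.05 on the log2 scale, from 8.86 ± 1.23 to 18.2 ± 0.698 CPM. EPT1, the ethanolamine phosphotransferase acting after it, fell by 0.65. PEMT, which turns phosphatidylethanolamine into phosphatidylcholine, fell from 53.9 ± 1.39 to 20.7 ± 2.30 CPM (log2 -1.38). SLC44A2, a choline transporter-like protein, rose by 0.86.

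In the phosphatidic acid branch 4 of 16 rose and 3 fell, with LPIN2, a phosphatidate phosphatase, higher by 1.36 and AGPAT5, an acyltransferase, lower at a log2 difference of -0.80. The acyltransferase AGPAT1 rose by 0.59 and CDS2, which makes CDP-diacylglycerol, by 0.57. In phospholipid remodelling 6 of 14 rose and 1 fell. The lysophospholipid acyltransferases LPCAT2, LPCAT3 and LPCAT1 rose by 1.20, 0.97 and 0.71, and the desaturase FADS2 by 1.31.

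Of the lipid export genes beside ABCA1, 4 of 9 rose and none fell, with a median of 0.44. NPC2, which carries cholesterol out of lysosomes, rose from 85.1 ± 6.20 to 192 ± 14.2 CPM (log2 1.17). The transporters ABCA5, ABCA3 and ABCA2 rose by 1.10, 0.78 and 0.44. The call for ABCA2 was lost without 1000 nM replicate 1 (adjusted p = 0.323) or DMSO chip 1 replicate 1 (0.179). Among LXR targets 1 of 9 rose and 1 fell at 1000 nM, LPCAT3 being the one that rose.

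Fatty acid oxidation and PPAR genes rose in 8 and fell in 1 of 17. The subunits of the mitochondrial trifunctional protein, HADHA and HADHB, rose by 0.72 and 0.89, and UCP2 by 1.04, while CPT1A, which admits fatty acids to mitochondria, fell by 0.75. Of 7 lipid droplet genes 2 rose, SOAT1 by 0.89 and PLIN3 by 0.84. Sterol synthesis had the highest count, 12 of 18 up and 1 down at 1000 nM, and 11 of 18 up at 1 nM. HMGCS1 rose by 1.74 at 1000 nM, INSIG1 by 1.57 and FDFT1 by 1.11.

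**Figure D3:**
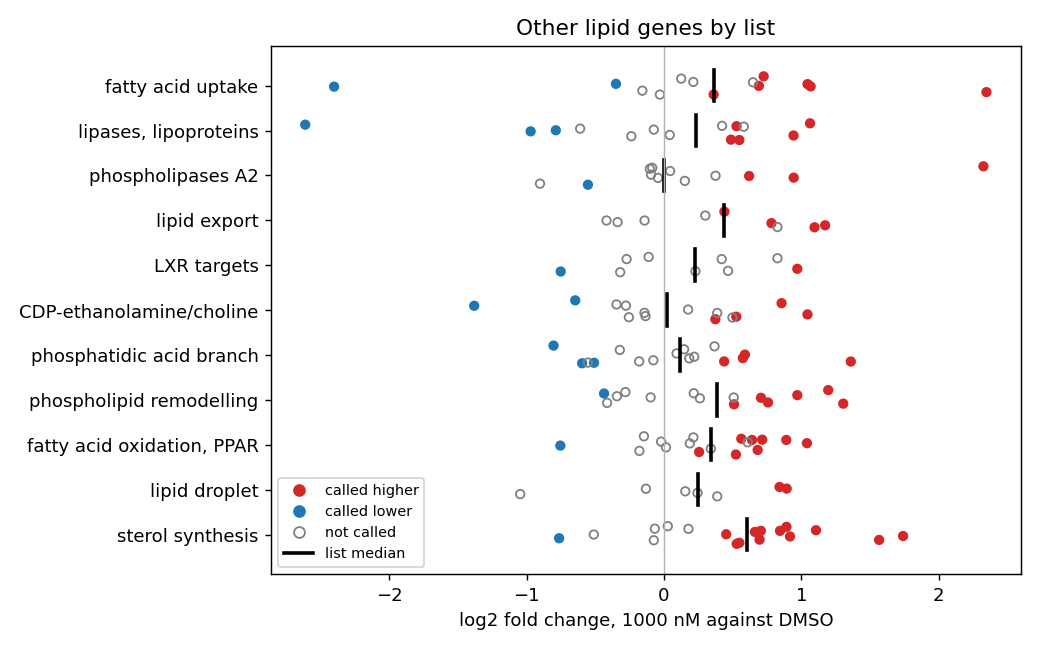
Log2 fold change at 1000 nM against DMSO of the tested genes of each lipid list without the 5 genes; filled red points passed the test as higher, filled blue points as lower, open points did not pass, and black bars are medians. Most lists hold genes on both sides of 0, with LIPG at -2.61 and MFSD2A at -2.40 furthest to the left.

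The decline of PLA2G2A above 30 nM led to the question of how other lipid genes stood at high against low dose. The doses compared were 1000 and 1 nM, where PLA2G2A itself was higher at 1000 nM (means of 196 and 99.6 CPM). The comparison therefore does not measure a decline of the kind that PLA2G2A showed. In a contrast of 1000 nM with 1 nM, added after seeing the data, 39 of the 139 genes were higher and 20 lower at 1000 nM (42.4%, against 41% of all genes, 20.6% lower). Of the 26 genes that rose at 1 nM, 5 were lower at 1000 nM than at 1 nM (19.2%) and 6 higher (23.1%), against 24.3% lower and 31.4% higher among the 478 of all tested genes that rose at 1 nM. These genes were selected as high in the same 1 nM libraries that the contrast uses, and the lipid share lies near that of all genes. Without the 2 libraries that stood apart, 33 lipid genes were higher and 28 lower, and 8 of the 23 that then rose at 1 nM were lower (34.8%, against 28.5%). Among the genes lower at 1000 nM than at 1 nM were SCD, FABP5 and DHCR7, named after their values were seen. SCD, a fatty acid desaturase, stood at 216 ± 7.57 CPM in DMSO, 446 ± 68.01 CPM at 1 nM and 254 ± 25.1 CPM at 1000 nM. The fatty acid binding protein FABP5 went from 61.3 ± 1.59 CPM to 92.5 ± 8.03 and then 48.0 ± 2.48 CPM. DHCR7, an enzyme of cholesterol synthesis, went from 98.3 ± 8.07 CPM to 165 ± 10.6 and then 94.1 ± 10.8 CPM. At 1000 nM PLA2G2A was still 2.67 above DMSO on the log2 scale, where SCD stood at 0.23, DHCR7 at -0.07 and FABP5 at -0.35; the difference between these genes and PLA2G2A was not tested.

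**Figure D4:**
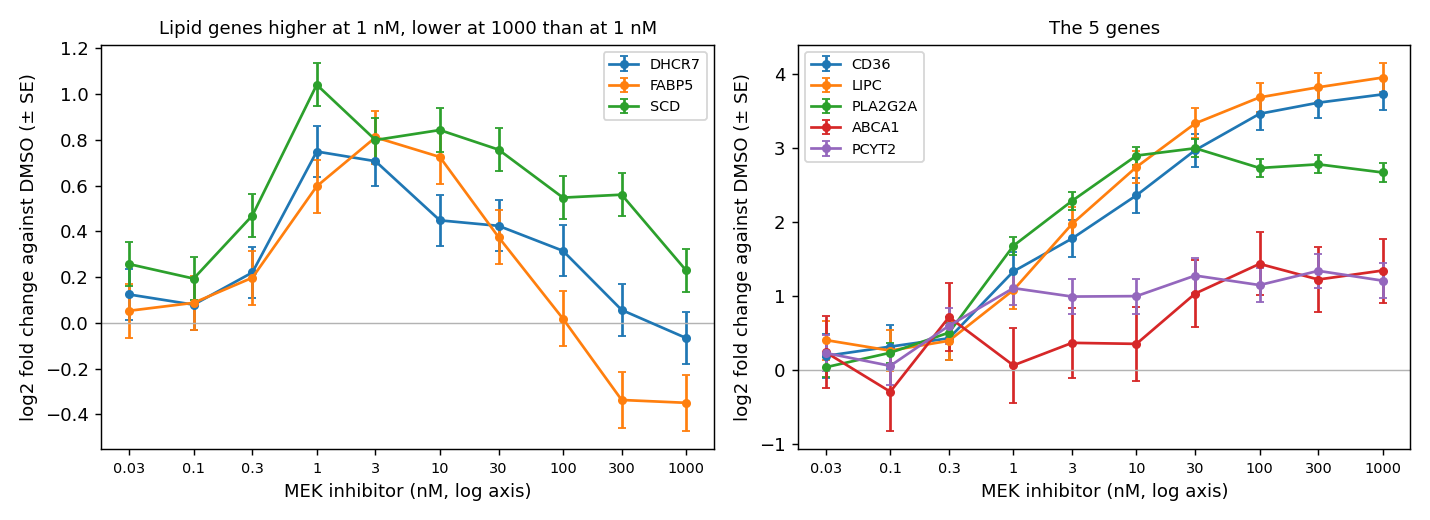
Log2 fold change against DMSO (bars are SE of the fit) by dose (log axis), left for 3 lipid genes that rose at 1 nM and were lower at 1000 than at 1 nM (SCD, FABP5 and DHCR7), right for CD36, LIPC, PLA2G2A, ABCA1 and PCYT2, on different vertical scales. SCD peaks at 1.04 at 1 nM, whereas LIPC reaches 3.95 and PLA2G2A levels off below its value of 2.99 at 30 nM.

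Markers of cell types in which these genes are better known were read beside them. Paneth markers summed to between 10.1 and 16.6 CPM in DMSO and between 63.5 and 78.8 CPM at 1000 nM, carried by LYZ (227 counts over 6 DMSO libraries, 794 over 3 libraries at 1000 nM). DEFA5, DEFA6, REG3A and ITLN2, which define Paneth cells beside PLA2G2A, had 0 counts in both groups. Hepatocyte markers, relevant to LIPC, summed to between 0.307 and 3.03 CPM in DMSO and between 1.45 and 3.10 CPM at 1000 nM, with ALB and HP at 0. For CD36, adipocyte markers moved from between 21.2 and 31.1 to between 41.3 and 49.1 CPM, carried by CFD, with ADIPOQ, LEP and FABP4 at 0 in both groups.

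Macrophage markers summed to between 7.06 and 12.3 CPM in DMSO and between 12.1 and 21.5 CPM at 1000 nM, ranges that overlapped. They were carried by CD68, with PTPRC, CD163 and TYROBP at 0, and the 1 marker of this list that was tested was not called at 1000 nM. Endothelial markers stayed at or below 1.75 CPM in DMSO and 1.46 CPM at 1000 nM. Enterocyte markers went from between 2.04 and 4.26 to between 7.72 and 14.6 CPM, with FABP2, APOA1 and APOA4 at 0 in both groups. Over 6 DMSO and 3 libraries at 1000 nM, ALPI went from 21 to 60 counts, SI from 0 to 26 and FABP1 from 12 to 26, while MTTP went from 16 to 1 and SLC5A1 from 10 to 1. Fibroblast markers went from between 3.28 and 4.51 to between 41.0 and 42.4 CPM, led by COL3A1, COL1A1 and LUM, while COL1A2, FAP, THY1 and POSTN were at 0. The part of these markers in the higher levels of the 5 genes was not tested.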

How the data were processed

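The libraries were made from 10 ng of RNA each by Ion AmpliSeq, which amplifies cDNA with primers for each gene, per the labels' protocols. The authors deposited whole-number counts per gene with no normalization, in 36 libraries. The submitters' processing notes name hg19 as the build. Aligner and counter: not given in the sources used here. Spike-in rows, 10 in number, held 0 counts and were left out. Counts were fitted with edgeR 4.0.16 in R 4.3.3 (filterByExpr, TMM, robust quasi-likelihood model, 12 groups, 24 residual degrees of freedom). A gene was called at a dose when the larger p of the tests against either DMSO chip, adjusted by Benjamini-Hochberg over 12102 genes, was below 0.05 with the same sign against both; such a gene is said to have risen or fallen. Log2 differences use the average of the DMSO groups, and the larger standard error is given. DESeq2 1.42.0 served as an alternative. Curves were fitted to log2 CPM (prior count 1) with scipy 1.17.1, and the scripts were tested on simulated data.

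The members and lists were chosen with earlier results of these data known. Of each list the text names up to 4 called genes with the smallest adjusted p at 1000 nM and at least 5 CPM in DMSO or at 1000 nM, and for each member the 3 nearest profiles; some genes that this rule names are not reported here. The deviations of DMSO libraries with the same number on both chips were correlated (r from 0.140 to 0.287 over 9050 genes). They differed beyond sampling noise (chi-square per degree of freedom from 1.60 to 1.67, and from 1.67 to 2.97 for other DMSO pairs) and were treated as pairs for mean and SD. For doses against DMSO, 0 of 20 pairings had all correlations above 0.1. Between doses, 3 and 300 nM had all above it (0.154, 0.222 and 0.307), while 30 and 1000 nM were mixed (0.362, -0.183 and 0.676). The standard errors of the curves treat the 36 libraries as independent. How the cultures of the replicates were separated is not in the labels, so a p-value measures only spread among these samples, which may be technical. Counts of amplified reads are not independent molecules, so depth limits cover counting error only. Alternatives were other scaling, filters, DMSO chips, tools, a replicate block, and leaving out libraries.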

Additional observations from a re-analysis of the deposited data

How the results depend on the processing

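Of 2201 values recomputed under alternatives, 67 moved by more than the spread between replicates or, for counts, by more than 1.5 times, 6 lost and 1 gained a call. Of 1760 log2 differences among them 16 changed sign, 8 in the DMSO chip comparison, where no gene passed, and 8 for ABCA1, PCYT2 and PLA2G2A at 1 nM or below. Between the chips, leaving out 1 DMSO library gave log2 differences from -0.30 to 0.28 for CD36, -0.13 to 0.12 for PCYT2 and -0.062 to 0.083 for PLA2G2A. With the DMSO of chip 1 or chip 2 alone, the log2 difference at 1000 nM was 1.65 or 1.03 for ABCA1 and 3.73 or 4.16 for LIPC. The low-dose differences of ABCA1 ran from -0.07 to 0.54 at 0.03 nM, -0.60 to 0.01 at 0.1 nM and -0.25 to 0.37 at 1 nM over the alternatives other than leaving out 1 library; those of PCYT2 at 0.1 nM ran from -0.012 to 0.12 and of PLA2G2A at 0.03 nM from -0.060 to 0.14 when 1 library was left out. Leaving out 1 library gave 3.58 to 3.88 for CD36 and 3.81 to 4.02 for LIPC. The midpoint dose without 1 replicate ran from 8.18 to 43.2 nM for ABCA1, 2.77 to 3.94 nM for CD36 and 0.224 to 0.523 nM for PCYT2; on CPM it was 12.7 nM for CD36, 12.5 nM for LIPC, 0.549 nM for PCYT2 and 2.24 nM for PLA2G2A. At 0.3 nM, 0 lipid list genes were called, against 1 with no filter, 1 with chip 2 alone, 1 without the libraries that stood apart and 5 when only the libraries compared entered the fit; all genes called there went from 0 to 40, 3, 1 and 125. With no filter 1 gene was called at 0.03 nM and 4 at 0.1 nM, and with chip 2 alone 1 at 0.03 nM. At 1 nM, 965 genes were called with both chips, 1652 with chip 1 alone and 1789 with chip 2 alone, where a single test decides the call. The cause of the other changes was not tested. With the replicate block, the log2 difference of ABCA1 between the chips was 0.61 and 68 lipid list genes were called at 1000 nM, and no call at these was changed by the block. ABCA1 rests on 4 to 24 counts per library.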
